A study of Mus musculus with 2 samples.

Results

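The 10 transcripts described here were chosen as products of cell lineages that the sort used in this study was meant to leave out. They are the immunoglobulin kappa constant region Igkc, the IgA heavy chain constant region Igha and the joining chain Jchain of plasma cells, the adult haemoglobin genes Hba-a1, Hba-a2, Hbb-bs and Hbb-bt of red cells, and S100a8, S100a9 and Mpo of the neutrophil line. They were chosen by symbol, and each matched 1 row of both gene tables, so they make up 10 of 31053 genes listed. Each was compared between cell barcodes with under 500, with 500 to under 1000 and with at least 1000 detected genes, and between classes of cells gated by marker genes, to size the RNA of plasma, red and neutrophil cells found in barcodes of other cells. Some were also high in other classes, as Mpo was in basophil or mast cell-like barcodes. The lineage names of the groups below are therefore labels, and the origin of the UMIs was not tested.

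The study profiled bone marrow progenitors of C57BL/6 mice by single-cell RNA sequencing with unique molecular identifiers (UMIs), in 1 library of wild type animals (LCR1+/+, called WT below) and 1 of animals in which LCR1 was knocked out (LCR1-/-, called KO). The cells of both libraries were viable, CD45+, Lineage- and CD127+, and each library pooled the cells of equal numbers of males and females of 8 to 12 weeks. LCR1 is not a row of the gene tables, so the deletion itself was not checked here. With 1 library for each genotype there is no replicate and no test between genotypes, and the genotype cannot be told apart from the preparation of its library. All intervals below are exact 95% intervals that cover counting error only.

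In droplet sequencing, RNA set free from broken cells enters droplets together with intact cells, so transcripts made in very large amounts by 1 lineage are found at low counts in barcodes of other lineages. Plasma cells devote much of their mRNA to antibody chains, in which the joining chain links IgA or IgM units into polymers. Red cell precursors fill with alpha and beta globin, and granulocyte precursors make Mpo, the peroxidase of their primary granules, earlier in maturation than S100a8 and S100a9, the subunits of calprotectin.

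The adult globins come in pairs with near-identical coding sequences, and this bears on every globin value below. Hba-a1 lies at chr11:32283511-32284465 on the plus strand and Hba-a2 at chr11:32296489-32297298 on the plus strand (GRCm38/mm10, GENCODE vM21). Hbb-bs lies at chr7:103826534-103828096 and Hbb-bt at chr7:103812524-103813996, both on the minus strand. The coding sequences of the alpha pair, of 426 bases, differ at 1 base, C381T from Hba-a1 to Hba-a2. Those of the beta pair, of 441 bases, also differ at 1 base, C417T from Hbb-bs to Hbb-bt, with positions counted from 1 at the start codon. The last 90 coding bases, with that base in capitals, are shown to set out the 1 coding difference of each pair. They are not the transcript ends, which 3′ libraries read. The annotated transcripts are longer, with 699 (Hba-a1), 554 (Hba-a2), 628 (Hbb-bs) and 703 bases (Hbb-bt).
Hba-a1: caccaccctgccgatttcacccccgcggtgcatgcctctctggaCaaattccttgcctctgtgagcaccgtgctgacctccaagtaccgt
Hba-a2: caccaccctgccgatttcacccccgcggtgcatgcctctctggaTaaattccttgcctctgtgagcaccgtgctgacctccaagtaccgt
Hbb-bs: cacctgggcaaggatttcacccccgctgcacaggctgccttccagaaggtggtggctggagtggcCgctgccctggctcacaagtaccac
Hbb-bt: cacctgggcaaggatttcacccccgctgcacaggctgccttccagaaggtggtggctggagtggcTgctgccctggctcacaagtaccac
Of the 60-base windows of the annotated transcripts, 65.5% of those of Hba-a1 occurred in Hba-a2 and 84.6% of those of Hba-a2 in Hba-a1. For the beta pair, 65.2% of those of Hbb-bs occurred in Hbb-bt and 57.6% of those of Hbb-bt in Hbb-bs. Counts within a pair are thus uncertain where reads could not be assigned to 1 gene. The other members lie apart from each other: Igkc at chr6:70726435-70726966 (plus strand), Igha at chr12:113254830-113260236 (minus strand), Jchain at chr5:88519809-88527891 (minus strand), S100a8 at chr3:90668978-90670035 (plus strand), S100a9 at chr3:90692632-90695721 (minus strand) and Mpo at chr11:87793581-87804413 (plus strand).

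In WT 20293 barcodes carried 47883132 UMIs in all. In KO 8476 barcodes carried 52137780 UMIs. Of the genes of the sort, Ptprc (CD45) had a UMI in 80.6% of the WT and 90.7% of the KO barcodes of at least 1000 genes used here, and Il7r (CD127) in 85.7% and 93.0%. Only barcodes with at most 10% of UMIs from mitochondrial genes were used: 5838, 7229 and 3290 WT barcodes and 66, 146 and 4343 KO barcodes, from few to many genes. Their median UMI counts were 630, 1036 and 5371.5 in WT and 569.5, 1695 and 7261 in KO. The KO strata under 1000 genes hold few barcodes, and 75 barcode sequences occurred in both libraries, among them 32 of the 66 KO barcodes under 500 genes. No such pair had at least 1000 genes in both libraries, and 47 pairs joined a barcode of at least 1000 genes in 1 library to a barcode of fewer genes in the other. Values that rest on the KO strata under 1000 genes are therefore given with and without these barcodes or as counts.

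Levels in the WT library were higher in barcodes with few genes. Levels are given in CPM, the UMIs of a gene as a share of all UMIs of the barcodes of a stratum summed, scaled to 1000000. They are not scaled by transcript length, so each is compared between barcodes and not between genes. The 10 transcripts together made up 10455 CPM of barcodes under 500 genes, 4126 CPM at 500 to under 1000 genes and 1278 CPM at 1000 genes or more. Igkc stood at 4549, 1687 and 183 CPM in these strata, a 24.8-fold difference between the first and the last (24.0 to 25.6). The rule of size asked for at least 50 UMIs over both strata, at least 50 CPM in the higher one, a 2-fold difference and an interval of the ratio that excluded 1. By this rule 8 of the 10 were higher under 500 genes than at 1000 genes or more, against 0.75% of the 3332 genes that met the minimum, and none was lower, against 0.03%. Jchain, S100a8 and S100a9 reached 50 CPM only in the stratum where they were high, so they could be called in 1 direction only, and the count is a description. The median log2 difference was 2.76 over the 10 and -0.05 over all genes measured.

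The size of the difference varied with the transcript. S100a9 stood at 523, 76.6 and 15.5 CPM, a 33.7-fold difference (30.4 to 37.4), and S100a8, its partner subunit, at 213, 41.0 and 12.2 CPM, a 17.5-fold difference (15.4 to 19.8). The joining chain gene Jchain stood at 379, 172 and 38.2 CPM. The 4 globin genes differed by 5.11-fold (Hba-a1) to 7.30-fold (Hbb-bt). The 2 members outside the rule were Igha, at 194, 147 and 140 CPM, and Mpo, at 229, 242 and 180 CPM. Their differences were 1.38-fold (1.277 to 1.497) and 1.27-fold (1.18 to 1.37). At 500 to under 1000 genes against 1000 or more, 9 members met the minimum, of which 7 were higher and none lower, where 0.546% and 0% of all genes measured were, with the same limit for Jchain and S100a9. The globin difference depended on how barcodes were divided: with strata by UMIs in place of genes (under 1000 and at least 2000), the 4 globins summed were lower in the shallow barcodes (ratio 0.173), and as a mean over barcodes of each barcode's own share the ratio was 0.843, against 6.17 for the sums. Summed markers of the source cells, none of them a member, stood at 144, 145 and 126 CPM for plasma cells (9 of 9 detected in each stratum), at 49.2, 31.0 and 23.9 CPM for erythroid cells (12, 13 and 13 of 13, with Epor at 0 under 500 genes), and at 607, 473 and 322 CPM for neutrophils (14, 13 and 14 of 14, with Ly6g at 0 in the middle stratum). Their part in the differences was not tested.

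**Figure D1:**
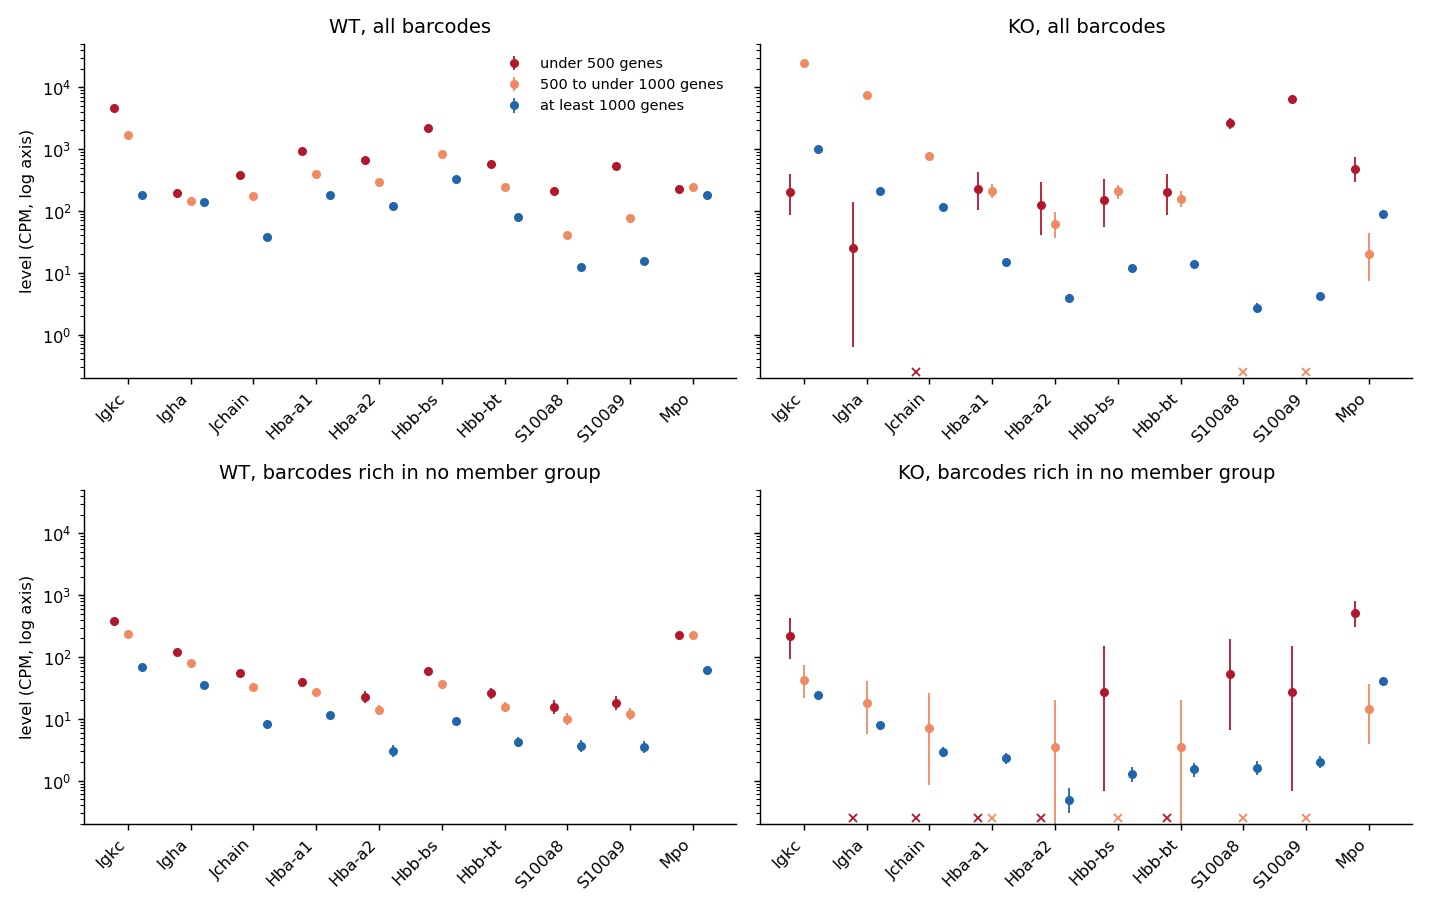
Level of each of the 10 transcripts (CPM, log axis) by number of genes per barcode in WT (left) and KO (right), over all barcodes (top) and over barcodes with under 10 UMIs of every member group (bottom). Points are sums over barcodes with exact Poisson intervals, cut at the axis, and crosses mark 0 UMIs. In WT without rich barcodes every transcript was lowest at 1000 genes or more, as with Igkc at 378, 234 and 69.9 CPM.

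Most of these UMIs sat in very few barcodes. Of the 16357 WT barcodes, the 1% with the most UMIs of a group held 78.8% of the plasma cell UMIs (Igkc, Igha and Jchain summed), 96.7% of the globin UMIs (4 genes) and 61.8% of the granulocyte UMIs (S100a8, S100a9 and Mpo). In KO the same share of its 4555 barcodes held 98.0%, 93.8% and 50.2%. Barcodes with at least 10 UMIs of a group are called rich in it below, a limit chosen after the values were seen. There were 316 WT barcodes rich in plasma cell transcripts, 79 in globin and 155 in granulocyte transcripts, together 548 barcodes or 3.35% of the library. The KO numbers were 26, 12 and 78, together 116 or 2.55%. Almost no barcode was rich in more than 1 group: 1 WT barcode was rich in plasma and globin transcripts, 1 in plasma and granulocyte transcripts, and none in KO.

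**Figure D2:**
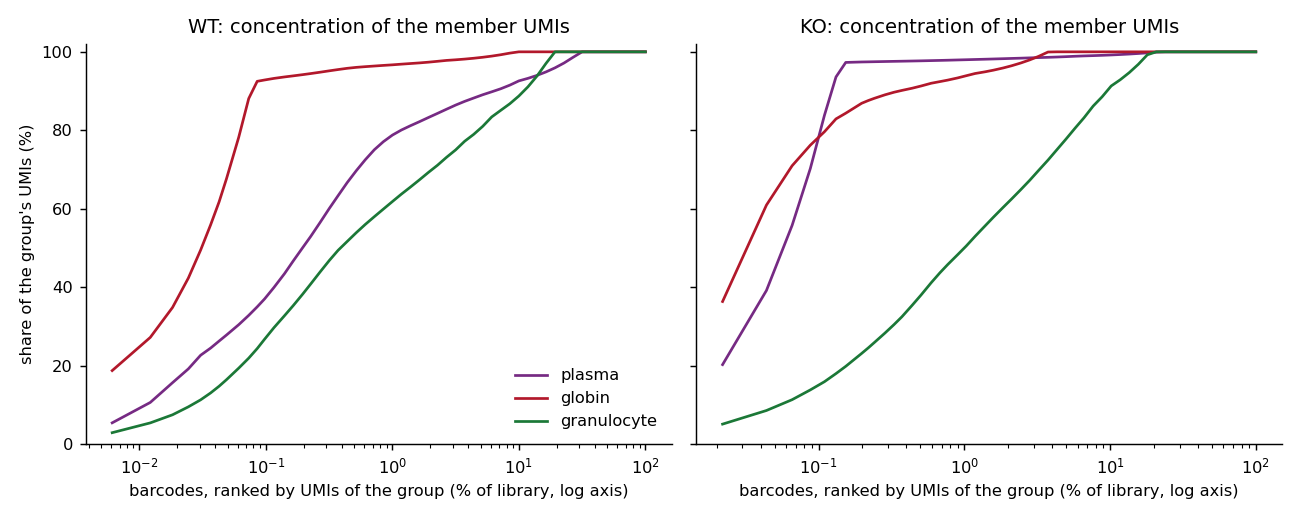
Share of each group's UMIs (%) held by barcodes ranked from the most to the fewest UMIs of that group (% of the library's barcodes, log axis), in WT and KO. The 16 WT barcodes richest in globin, 0.0978% of the library, hold 92.8% of the globin UMIs, while the granulocyte curves climb over a far wider range of barcodes, reaching 61.8% (WT) and 50.2% (KO) at 1% of barcodes.

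The rich barcodes were of different kinds in the 3 groups. Those rich in globin had a median of 882 UMIs in WT, and 69 of the 79 held all 4 genes. The richest held 9580 globin UMIs among 10222 UMIs in all (93.7%) with only 279 genes detected: 1867 of Hba-a1, 1467 of Hba-a2, 5067 of Hbb-bs and 1179 of Hbb-bt. The next held 4326 globin UMIs of 5311. These 2 show that single barcodes dominate a sum, since the 5 richest held 49.5% of the globin UMIs of the WT library. Of the 79 WT barcodes, 18 were erythroid-like by marker genes and held 16.8% of the globin UMIs. Another 30, which fell in no class, held 54.8%. Among the 12 globin-rich KO barcodes the highest globin share was 4.92% of a barcode's UMIs, and 7 erythroid-like ones held 84.4% of the globin UMIs.

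Few WT barcodes rich in plasma cell transcripts held both Igkc and Igha in number. Igkc reached 10 UMIs in 184 of the 316 and Igha in 38, but both did so in only 3. As a light chain gene, Igkc is used with heavy chains of any class. No Igha UMI was found in 140 of the 184, and these 140 held 66.6% of all plasma cell UMIs of the library at a median of 847.5 UMIs in all. The IgM heavy chain gene Ighm, not a member, reached 10 UMIs in 112 barcodes together with Igkc, and 69 with at least 10 Igkc UMIs had under 10 of both Igha and Ighm. Conversely 35 barcodes had at least 10 Igha UMIs with under 10 of Igkc, the richest with 2203 of Igha and 1 of Igkc. At least 10 UMIs of the lambda light chain constant genes were found in 38 barcodes. Of the 316 WT barcodes, 30 were plasma cell-like by other markers and held 32.7% of the plasma cell UMIs. Another 156, which fell in no class, held 44.8%. In KO, 26 barcodes were rich, and 7 of them, classed as plasma cell-like by other markers, held 97.3% of the plasma cell UMIs. Of these the richest held 9120 Igkc, 3704 Igha and 696 Jchain UMIs of 21127, and the next 11847 Igkc, 0 Igha and 771 Jchain UMIs.

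**Figure D3:**
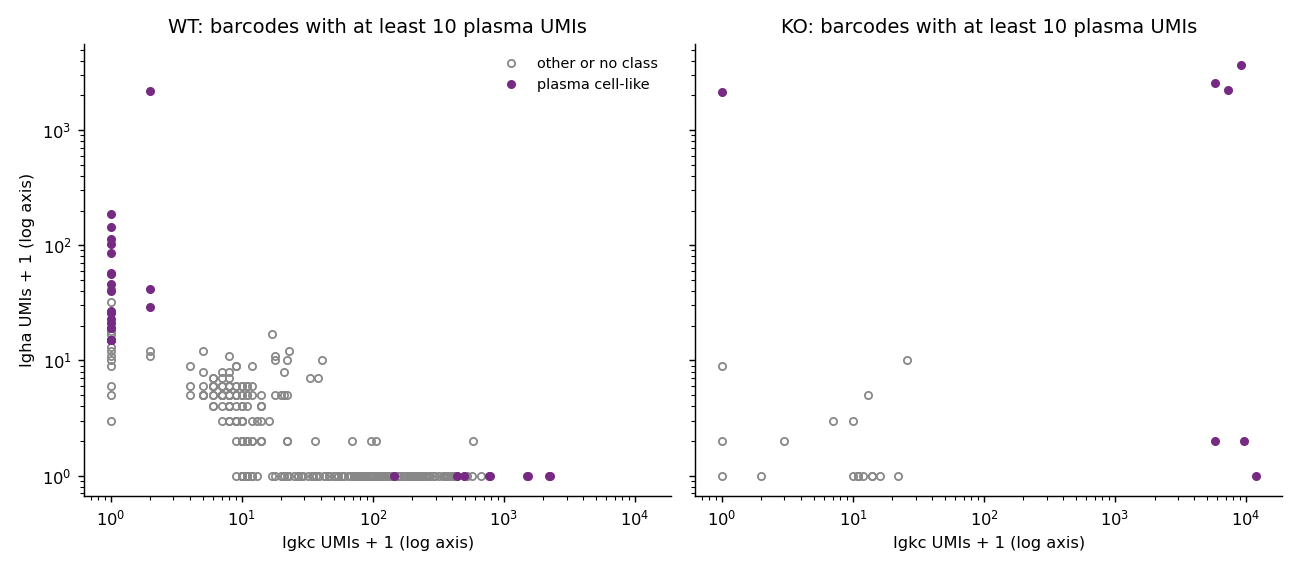
UMIs of Igkc (x axis) and Igha (y axis), each plus 1 on log axes, in the barcodes with at least 10 plasma cell UMIs, 316 in WT and 26 in KO. Filled points are plasma cell-like by marker genes. Most WT points lie along 1 of the axes, with both genes at 10 UMIs or more in 3 barcodes of WT and 3 of KO.

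Granulocyte-rich barcodes were of 2 kinds. In WT 44 had at least 10 UMIs of S100a8 and S100a9 summed with under 10 of Mpo, at a median of 750 UMIs, and 110 had at least 10 of Mpo with under 10 of the S100 pair, at a median of 16012 UMIs. None had 10 of both, and 1 of the 155 reached the limit only as a sum of both. KO had 8, 69 and 0 such barcodes. Of the Mpo UMIs 50.6% (WT) and 48.9% (KO) were in the top 1% of barcodes, the lowest shares of the 10. Basophil or mast cell-like barcodes made up 65 of the 155 granulocyte-rich barcodes in WT and 52 of the 78 in KO.

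Levels outside rich barcodes were sized in the barcodes rich in none of the 3 groups. They are not given as a measure of free RNA, whose part was not tested, and Mpo, Hba-a1 and Igkc differed by class, described below. There the 10 transcripts made up 962 CPM under 500 genes, 696 CPM at 500 to under 1000 genes and 211 CPM at 1000 genes or more in WT, and 85.4 CPM at 1000 genes or more in KO. As a share of all UMIs that is 0.0962%, 0.0696%, 0.0211% and 0.00854%. In WT, Igkc stood at 378, 234 and 69.9 CPM, Igha at 119, 81.4 and 35.2 CPM and Jchain at 54.6, 33.3 and 8.35 CPM. Hbb-bs stood at 58.5, 37.4 and 9.24 CPM, Hba-a1 at 39.7, 27.7 and 11.7 CPM, Hbb-bt at 26.4, 15.8 and 4.28 CPM and Hba-a2 at 23.0, 14.0 and 3.03 CPM. Mpo stood at 229, 230 and 62.5 CPM, S100a9 at 18.3, 12.1 and 3.55 CPM and S100a8 at 15.8, 10.0 and 3.67 CPM. Thus each of the 10 was lower at 1000 genes or more than in both other strata of WT.

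By the rule of size, 5 members met the minimum in WT without rich barcodes and all 5 were higher under 500 genes than at 1000 genes or more (Igkc, Igha, Jchain, Hbb-bs and Mpo), against 0.981% of the genes measured there. A member could meet that minimum through the stratum where it was high, so the count itself supports nothing. The ratios of the 5 that did not meet it ran from 3.39 (Hba-a1, 2.75 to 4.15) to 7.60 (Hba-a2, 5.50 to 10.5). Igha and Mpo, the 2 with small differences over all barcodes, differed by 3.38-fold (3.00 to 3.80) and 3.67-fold (3.37 to 3.99) once rich barcodes were left out. Igkc differed by 5.40-fold (5.02 to 5.80).

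Counted per barcode, the order was the other way round. Barcodes rich in no group held 0.612, 0.770 and 1.73 UMIs of the 10 transcripts each, from few to many genes in WT, while their median UMI counts differed far more between strata. For Igkc these numbers were 0.240, 0.259 and 0.571 UMIs per barcode, and for Mpo 0.146, 0.255 and 0.510. KO barcodes of at least 1000 genes held 0.236 Igkc UMIs and 0.820 UMIs of the 10 each. Leaving out barcodes with 10 or more UMIs removes deep barcodes more readily than shallow ones, so shares at equal depth, with no barcode left out for its UMIs of a group, are given next.

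Detection at equal depth ran in the same direction as the CPM. Over all WT barcodes, 18.8% under 500 genes and 32.1% at 1000 genes or more had an Igkc UMI. After each barcode was thinned to 500 UMIs, so that depth was equal, the shares were 16.4%, 10.4% and 5.35% from few to many genes. Thinned shares of Hbb-bs were 3.39%, 2.21% and 0.973%, those of S100a9 1.15%, 0.788% and 0.578%, and those of Mpo 8.94%, 8.95% and 5.74%. In KO barcodes of at least 1000 genes 15.5% had an Igkc UMI unthinned, and the thinned shares were 1.80% for Igkc, 0.184% for Hbb-bs, 0.184% for S100a9 and 2.16% for Mpo.

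The KO strata under 1000 genes gave few counts. Under 500 genes Igkc had 8 UMIs (202 CPM, 87.2 to 398), Igha 1, Jchain 0 of 39618 UMIs and the 4 globin genes 5 to 9 each, while S100a8 had 103 UMIs (2600 CPM), S100a9 253 (6386 CPM) and Mpo 19. By the rule of size 7 members were higher and 3 lower (Igkc, Igha and Jchain) than in KO barcodes of at least 1000 genes, where 7.71% and 1.93% of the genes measured were. The globins, S100a8 and S100a9 reached 50 CPM only under 500 genes, and Igha and Jchain only at 1000 genes or more, so the direction of these was fixed by the minimum. The 375 granulocyte UMIs came to 9465 CPM, of which 373 were in barcodes whose sequence was also in the WT library, so 2 UMIs were left without those barcodes. Without rich barcodes 62 barcodes were left, with 8 Igkc, 19 Mpo, 2 S100a8 and 1 S100a9 UMI. At 500 to under 1000 genes 1 barcode held 7224 of the 7236 Igkc UMIs, and without rich barcodes 12 Igkc UMIs were left in 143 barcodes (42.9 CPM, 22.1 to 74.9).

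Other transcripts of the 3 lineages were examined as lists. Of 10 immunoglobulin constant region genes beside the members, 2 met the minimum in WT. Both were higher under 500 genes, against 0.75% of all genes measured. Without rich barcodes Iglc1 alone was higher, against 0.981% of the genes measured there. Over all barcodes Ighm stood at 1269, 889 and 513 CPM, and the lambda gene Iglc1 at 399, 335 and 171 CPM. Ighg1, of IgG1, was at 0 in both strata compared. The 160 kappa variable segments summed to 31.8 CPM under 500 genes and 2.40 CPM at 1000 genes or more, and 151 of them had no UMI in either. Of 10 plasma cell factors only Xbp1, the regulator of secretory capacity, met the minimum, and it stood at 76.9, 74.1 and 76.4 CPM. The other 9 were too low for the rule, among them Mzb1, a chaperone of antibody assembly, at 29.7, 32.4 and 17.7 CPM.

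Of 15 red cell genes beside the adult globins 2 met the minimum and none met the rule. The antioxidant enzyme gene Prdx2 stood at 240, 242 and 276 CPM and Mkrn1 at 87.1, 80.6 and 79.2 CPM in WT, both also found in other cells at these depths (65.2% and 42.2% of WT barcodes of at least 1000 genes). The embryonic globin genes Hbb-bh1, Hbb-bh2, Hbb-y and Hba-x were at 0 in both strata. The 15 genes summed to 477 CPM under 500 genes and 456 CPM at 1000 genes or more, most of it from these 2. The 13 erythroid markers of the gate, given above, stood at 49.2 and 23.9 CPM.

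Of 19 neutrophil granule and secretory genes 7 met the minimum in WT and 2 were higher under 500 genes, against 0.75% of all genes measured. These were the secondary granule genes Camp (80.2, 9.96 and 1.30 CPM) and Ngp (61.2, 9.71 and 1.13 CPM). Both reached 50 CPM only under 500 genes, so they could be called in that direction only, and each had its UMIs there in 23 barcodes, with up to 41 and 32 UMIs in 1. Without rich barcodes 5 met it and 3 were higher, all primary granule proteases: Elane, Prtn3 and Ctsg, against 0.981% of all genes measured there. A gene could meet the minimum through the stratum where it was high, so this count is a description. Over all barcodes Prtn3 stood at 95.9, 116 and 57.1 CPM. Of 8 platelet genes 1 met the minimum and none met the rule, with sums of 52.9 and 40.2 CPM.

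By class, Igkc, Igha and Mpo were found in every class with at least 30 barcodes, in both libraries. Classes were gated by at least 3 detected markers, none of them a member, and are named "-like". The neutrophil-like class of WT, a source class, had 36 barcodes of at least 1000 genes, 20 of them rich in no group. It is left out where classes are ranked below. In barcodes of at least 1000 genes and rich in no group, Igkc in WT stood highest in basophil or mast cell-like barcodes (125 CPM, 106 to 145, 281 barcodes) and ILC2-like barcodes (95.1 CPM, 87.1 to 104, 881 barcodes). ILC2 are group 2 innate lymphoid cells, which carry CD127, the receptor used in the sort. Igkc stood at 81.7 CPM in NK or ILC1-like, 67.4 in ILC precursor-like, 67.0 in plasmacytoid dendritic cell-like, 50.8 in early B-like and 44.8 CPM (40.2 to 49.8) in lymphoid progenitor-like barcodes. Neighbours in this order had overlapping intervals except basophil or mast cell-like against ILC2-like barcodes. Per barcode depth ran partly the other way, since lymphoid progenitor-like barcodes had a median of 12140 UMIs before rich ones were left out and basophil or mast cell-like ones 3460.

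The share of barcodes with an Igkc UMI, without thinning to equal depth, lay in a narrower range. It was 26.7% in ILC2-like barcodes, the lowest of these 7 WT classes, and 35.9% in NK or ILC1-like barcodes, the highest. In the neutrophil-like class of WT, left out of these, 4 of 20 barcodes had an Igkc UMI (5.73% to 43.7%). Cells of the B lineage can make Igkc themselves, and before rich barcodes were left out the early B-like class of WT stood at 208 CPM, the highest of the 7. In KO the same classes ran from 13.03 CPM in lymphoid progenitor-like to 36.5 CPM in early B-like barcodes.

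KO ILC3-like barcodes stood apart, with Igkc at 131 CPM (106 to 160, 97 UMIs in 123 barcodes) and a UMI in 30.1% of barcodes. Their leading genes were Cd4, Ccr6 and MHC class II genes such as H2-Aa, with 1 ILC3 marker of the gate among the 10 leading genes. No other KO class named above had an interval reaching that level. WT held 26 ILC3-like barcodes in all strata, too few for this comparison.

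Of the haemoglobin genes, Hba-a1 differed more between classes than Igkc did. Hba-a1 in WT stood at 38.5 CPM (33.5 to 44.1) in ILC2-like barcodes, with 212 UMIs in 881 barcodes, and at 0.771 to 6.89 CPM in the 6 other classes, whose intervals all ended at 13.1 CPM or below. A UMI of it was found in 13.1% of ILC2-like and in 0.552% to 4.60% of the other barcodes. KO showed the same order at a lower level: 15.6 CPM (12.1 to 19.9) in ILC2-like barcodes and at most 0.936 CPM in the 7 others. Hbb-bs did not follow it. In WT it stood at 13.5 CPM (10.6 to 16.9) in ILC2-like, 23.0 CPM in basophil or mast cell-like and 4.62 to 9.25 CPM in the other barcodes, and in KO ILC2-like barcodes it had 3 UMIs, 0.722 CPM.

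**Figure D4:**
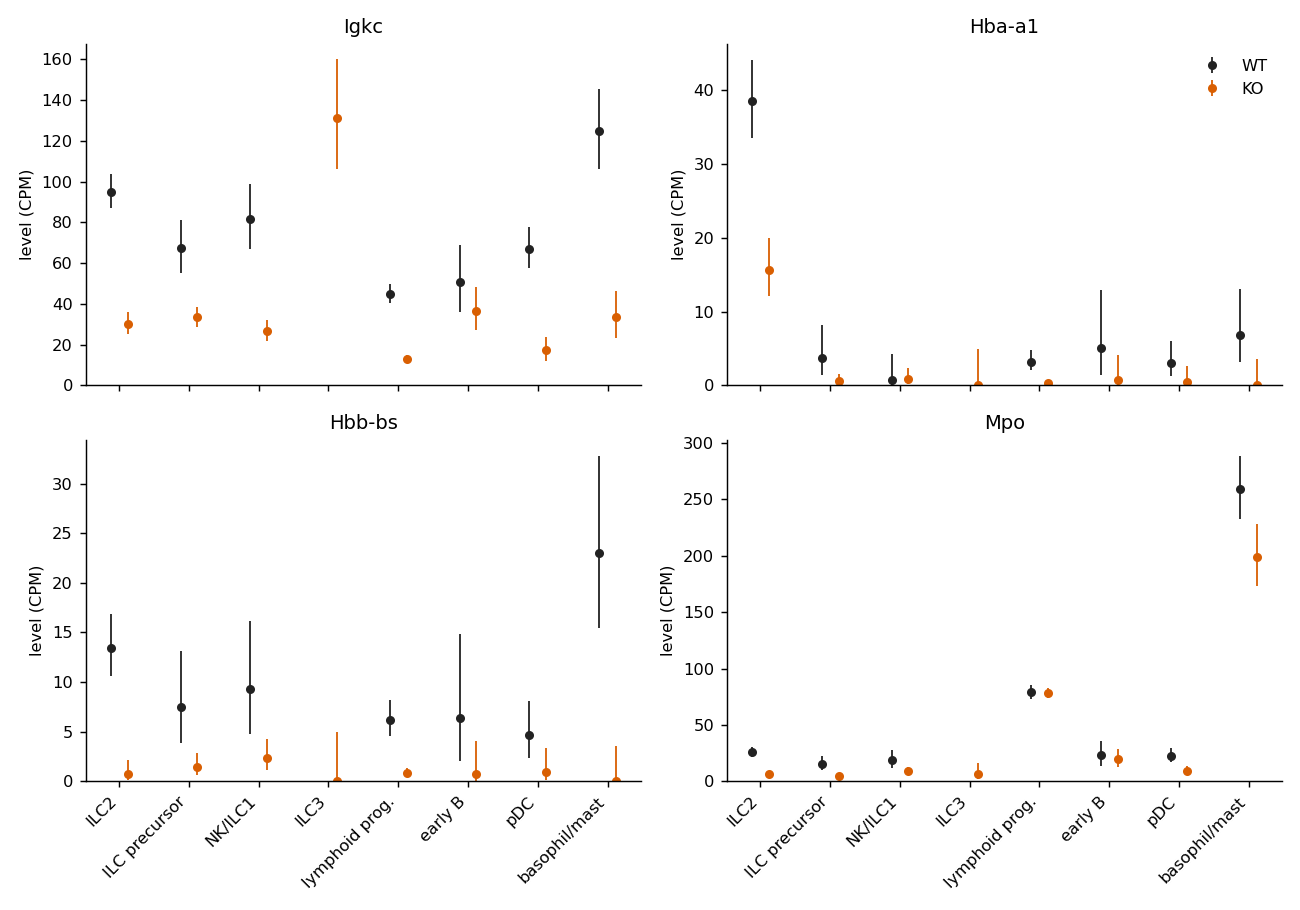
Level (CPM) of Igkc, Hba-a1, Hbb-bs and Mpo in barcodes of at least 1000 genes rich in no member group, by marker-gated class in WT (black) and KO (orange), with exact Poisson intervals. Classes with under 30 barcodes and the neutrophil-like class of WT (36 barcodes, 20 of them rich in no group) are not drawn. Among the classes drawn, Hba-a1 is highest in ILC2-like barcodes of both libraries (38.5 and 15.6 CPM), Mpo in basophil or mast cell-like barcodes (259 and 199 CPM).

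Hba-a1 was spread over ILC2-like barcodes of each marker count. In WT 115 of 881 barcodes had it, and with 3 to 4, 5 to 6 and at least 7 detected ILC2 markers it stood at 43.6, 34.6 and 41.0 CPM. In KO these values were 16.3, 8.47 and 31.3 CPM, on 18, 18 and 29 UMIs. Among WT ILC2-like barcodes with Hba-a1 10.4% also had Hbb-bs, against 6.27% of those without (5.51% to 17.5% and 4.66% to 8.22%). In the same class Igkc was found in 48.4% of barcodes with Igha against 20.8% without. S100a9 was found in 22.9% with S100a8 against 3.55% without. For Igkc with and without Mpo, a gene of another lineage, the shares were 38.9% and 24.9%. None of these shares was taken at equal depth. In the 31 WT ILC2-like barcodes above 10% mitochondrial UMIs and rich in no group Hba-a1 stood at 70.8 CPM, on 11 UMIs. Its coding sequence and that of Hba-a2 differ at the 1 base shown above, while 65.5% of the 60-base windows of its transcript occur in that of Hba-a2. The level of Hba-a2 in the WT class was 4.00 CPM.

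Ratios of 2 transcripts of 1 lineage were compared between classes, as a description of the mixture each class held. Igha to Igkc lay between 0.375 (early B-like) and 0.545 (ILC2-like, 0.470 to 0.631) in the 7 WT classes without rich barcodes, with intervals that all overlapped. In WT plasma cell-like barcodes of any number of genes it was 0.324 (0.311 to 0.337), but 1 barcode held 2203 of their 3263 Igha UMIs, and without it the ratio was 0.105 (0.0987 to 0.112). It was 0.0185 (0.0164 to 0.0208) in rich barcodes under 500 genes. Jchain to Igkc was 0.145, 0.142 and 0.119 in the 3 WT strata without rich barcodes. Igha to Igkc in the same strata was 0.315 (0.281 to 0.351), 0.348 (0.317 to 0.381) and 0.503 (0.463 to 0.546). The ratio was thus lower in the 2 strata under 1000 genes than above, and higher in each than in rich barcodes under 500 genes. Differences between the WT classes were not tested.

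In KO, Igha to Igkc was 0.376 in ILC2-like (0.263 to 0.530), 0.368 in NK or ILC1-like, 0.251 in ILC precursor-like and 0.576 (0.453 to 0.729) in lymphoid progenitor-like barcodes, and 0.215 in plasma cell-like barcodes (0.172 without the 1 richest). ILC3-like barcodes had 6 Igha for 97 Igkc UMIs, 0.0619 (0.0222 to 0.140), below the interval of each of those 4 classes, and no Jchain UMI. Plasmacytoid dendritic cell-like barcodes of KO had 19 Jchain for 37 Igkc UMIs, a ratio of 0.514 (0.279 to 0.916), where the WT class had 0.103 (0.0599 to 0.168).

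Hba-a1 to Hbb-bs was 2.86 in WT ILC2-like barcodes (2.19 to 3.79, 212 and 74 UMIs) and 21.7 in KO (7.09 to 108, 65 and 3 UMIs). In the other WT classes it ran from 0.0833 (NK or ILC1-like, 1 and 12 UMIs) to 0.800 (early B-like, 4 and 5 UMIs). Lymphoid progenitor-like barcodes, with 25 and 48 UMIs, had 0.521 (0.308 to 0.862). Erythroid-like barcodes of any number of genes had 0.462 (0.437 to 0.488) in WT and 1.22 (1.08 to 1.38) in KO. Hba-a2 to Hba-a1 was 0.104 (0.0637 to 0.161) in WT ILC2-like and 0.729 (0.679 to 0.781) in WT erythroid-like barcodes. Both ratios of ILC2-like barcodes thus lay outside the intervals of erythroid-like ones, in WT and, for Hba-a1 to Hbb-bs and Hba-a2 to Hba-a1, in KO (0.0308, 0.00365 to 0.116, against 0.261, 0.218 to 0.311).

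**Figure D5:**
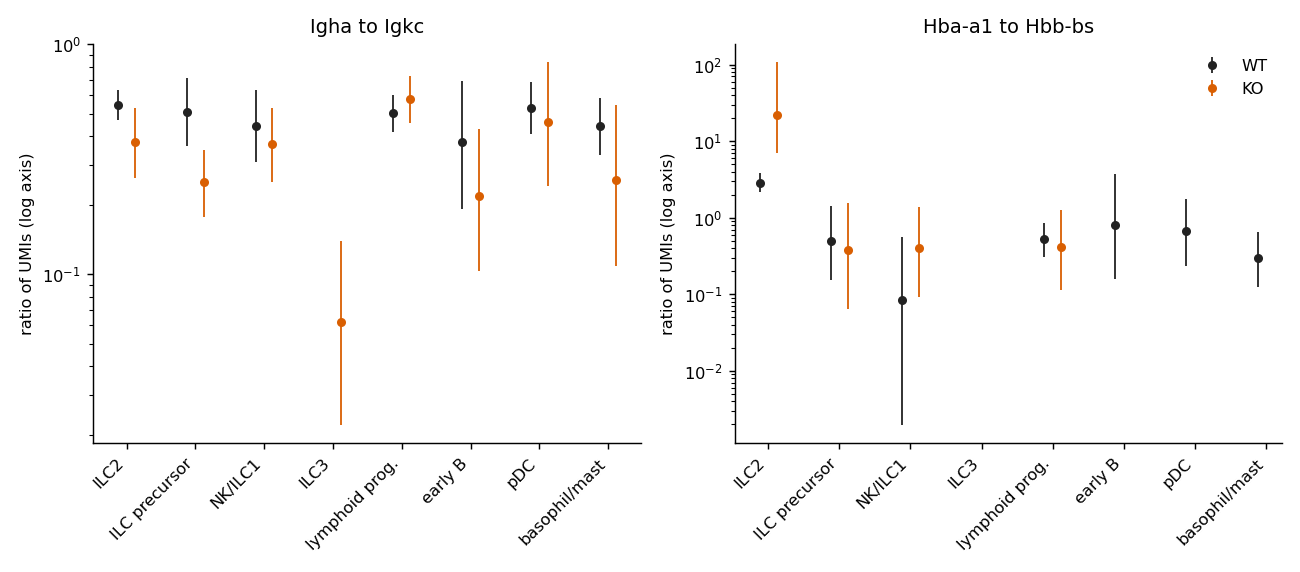
Ratio of UMIs (log axes) of Igha to Igkc and of Hba-a1 to Hbb-bs by class in WT (black) and KO (orange), in barcodes of at least 1000 genes rich in no member group, with exact binomial intervals. Ratios of 0, those on under 5 UMIs and the neutrophil-like class of WT are not drawn. Igha to Igkc of WT spans 0.375 to 0.545, while Hba-a1 to Hbb-bs of ILC2-like barcodes, at 2.86 and 21.7, stands above every other class drawn.

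The beta globin pair had its own exception. In KO lymphoid progenitor-like barcodes rich in no group Hbb-bt had 37 UMIs and Hbb-bs 12, a ratio of 3.08 (1.57 to 6.49), against 0.729 (0.458 to 1.15) in the WT class and 1.06 (0.940 to 1.20) in KO erythroid-like barcodes (0.812 without the 1 richest, 0.690 to 0.956). S100a9 to S100a8 was 2.34 (2.17 to 2.52) in WT and 2.50 (1.97 to 3.18) in KO neutrophil-like barcodes, and 0.967 (0.713 to 1.31) in WT barcodes of at least 1000 genes rich in no group.

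Mpo also differed by class. In WT it stood at 259 CPM (233 to 289) in basophil or mast cell-like, 79.2 CPM (73.0 to 85.7) in lymphoid progenitor-like and 15.0 to 25.8 CPM in the 5 other barcode classes. In KO it stood at 199 CPM (173 to 228), 78.0 CPM (73.7 to 82.6) and 4.29 to 19.7 CPM in the same order, the last over 6 classes with ILC3-like ones. The neutrophil-like class of WT is not among these, and all 20 of its barcodes rich in no group had an Mpo UMI. Ctsg, a marker of the neutrophil gate, and Ms4a3 were among the 10 leading genes of the KO basophil or mast cell-like class. Of the classes compared, S100a8 and S100a9 were highest in ILC2-like barcodes of both libraries: 10.0 and 9.82 CPM in WT, 7.22 and 7.70 CPM in KO, and 4.06 CPM or less for S100a8 in the others. The most alike non-member genes over 16 library-by-class sums, by Pearson r of log2(CPM + 5), were F630028O10Rik (0.974), Ctsg (0.961), Ms4a3 (0.946), Prtn3 (0.945) and Rab38 (0.939) for the granulocyte group. All 5 were highest in the WT neutrophil-like class, 1 of the 16 sums. Ctsg and Prtn3 are markers of its gate, so that sum was selected on them. For the globin group they were Car1 (0.844), Zfp65, Gm11808, Hus1 and Eif4b. Car1 reached at most 1.57 CPM in these sums, below the 5 CPM added, so its r rests on values near the floor. For the plasma cell group they included Etnk1 (0.677), Mbd2, Bod1l and Zfp984. Points of 1 library share its depth, and the values, over 9990 genes, are a description.

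Between genotypes the sums of all barcodes and of barcodes rich in no group went in different directions for antibody transcripts. At 1000 genes or more the KO level of Igkc was 1017 CPM against 183 CPM in WT, with Jchain at 116 and 38.2 CPM, and Igha at 206 and 140 CPM. Without rich barcodes Igkc was at 24.6 CPM in KO against 69.9 CPM in WT (2.84-fold higher in WT, 2.63 to 3.07), Igha at 8.07 and 35.2 CPM (4.35-fold, 3.83 to 4.96) and Jchain at 2.95 and 8.35 CPM (2.83-fold, 2.25 to 3.57). The globins were lower in KO both ways: Hbb-bs stood at 12.0 in KO and 326 CPM in WT over all barcodes and at 1.28 and 9.24 CPM without rich ones (7.22-fold higher in WT, 5.32 to 9.96).

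By the rule of size 2 members were higher in KO (Igkc and Jchain) and 5 lower (the globins and Mpo) over all barcodes, of 8 that met the minimum, where 0.396% and 0.457% of 3279 genes were. Jchain reached 50 CPM only in KO and the globins only in WT, which fixed their direction. Without rich barcodes 2 members met the minimum, none was higher, and 1 was lower (Igkc), where 0.304% and 0.274% of all genes measured were. Igkc and Mpo reached 50 CPM there only in WT, so neither could be called higher in KO. Mpo there was at 40.5 CPM in KO against 62.5 CPM in WT, 1.54-fold (1.44 to 1.65). S100a8 and S100a9 stood at 1.62 and 1.99 CPM in KO and at 3.67 and 3.55 CPM in WT.

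Within classes, without rich barcodes, Igkc was lower in KO in 6 of 7 classes with intervals that excluded 1. It was higher in WT by 3.16-fold in ILC2-like (2.60 to 3.87), 2.02-fold in ILC precursor-like, 3.07-fold in NK or ILC1-like, 3.44-fold in lymphoid progenitor-like, 3.90-fold in plasmacytoid dendritic cell-like and 3.73-fold in basophil or mast cell-like barcodes. In early B-like barcodes the ratio was 1.39 (0.894 to 2.15). In ILC2-like barcodes 2 members met the minimum and both, Igkc and Igha, were lower in KO and none higher, where 0.368% and 0.335% of the genes measured were. Both reached 50 CPM only in WT, so no other direction could be called. Hba-a1 of that class was 2.46-fold higher in WT (1.86 to 3.31), and S100a8 1.39-fold (0.872 to 2.24).

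Mpo went with the class. In lymphoid progenitor-like barcodes the WT level of 79.2 CPM and the KO level of 78.0 CPM gave a ratio of 1.01 (0.919 to 1.12), while in ILC2-like barcodes it was 3.97-fold higher in WT (2.62 to 6.24). Whether the lower antibody, globin and Mpo levels of KO barcodes go with the smaller number of KO barcodes under 1000 genes (66 and 146, against 5838 and 7229 in WT) was not tested.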

How the data were processed

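UMI counts were deposited as 1 sparse matrix per library, made with Cell Ranger (header software version 3.1.0) on mm10 per the file headers and the submitters' processing notes, which also name Seurat without a role. The barcode suffixes are those of an aggregated run; whether depths were equalised, and the annotation release used for counting, are not given in the sources used here. Per the labels' protocols the libraries are 10x 3′ libraries. No barcode below 527 (WT) or 500 (KO) UMIs is listed, so droplets with fewer UMIs were not analysed here. Whether the listed barcodes with few genes include empty droplets was not tested.

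Barcodes with at most 10% mitochondrial UMIs were divided by genes detected and their UMIs summed. Classes needed at least 3 detected markers and more than of any other class. This minimum, and the limit of 10 UMIs for rich barcodes, were chosen after the values were seen. The members, markers and lists were chosen with earlier results of these data known. Doublets were kept. Thinning drew 500 UMIs per barcode without replacement (seed 0). Intervals are exact Poisson (CPM), Clopper-Pearson (shares) and binomial (ratios), at 95%. Log2 differences used CPM + 5. The rule of size was tested on simulated counts for KO over WT at 1000 genes or more (3139 genes): it called 50 of 50 genes raised 3-fold, 47 of 50 lowered 3-fold, 0 of 50 raised 1.5-fold and 0 of 2942 unchanged. The simulated sums were Poisson draws, the error that the intervals assume. Calls made by UMIs held in few barcodes were therefore not tested. Beside the 10 members, the genes open to naming were the up to 5 of each list with the highest CPM under 500 genes in either library and the 5 most alike each group, of which 1 is not reported here; others, named after their values were seen, met the rule of size, have no UMI or lead a class. Positions and globin sequences came from GENCODE vM21. Python 3.11.15, numpy 2.4.6, scipy 1.17.1, pandas 2.3.3 and matplotlib 3.10.9 were used.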

Additional observations from a re-analysis of the deposited data

Results flagged for a closer look

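The libraries differed in the direction of the plasma cell transcripts between barcodes with few and with many genes. In WT the group summed was 14.2-fold higher under 500 genes than at 1000 genes or more (13.8 to 14.5), and in KO the ratio was 0.170 (0.0776 to 0.322). Igkc had ratios of 24.8 in WT and 0.199 in KO (0.0857 to 0.391), Igha of 1.38 and 0.123 (0.00311 to 0.684), and Jchain of 9.94 and 0, with 0 of 39618 KO UMIs and an upper bound of the ratio of 0.804. The difference between the libraries was not tested, since each is 1 sample. It rests on 9 plasma cell UMIs in 66 KO barcodes, 7 of them in barcodes whose sequence is also in WT. Without rich barcodes the group's ratio in KO was 6.05, on the same side of 1 as the 4.855 of WT.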

How the results depend on the processing

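No paired analysis was possible because each genotype is 1 library, which also leaves no replicate to omit. Of 115 alternatives to 32 results, 60 moved the value beyond its counting interval, or a count by over 1.5 times, and 11 put a ratio on the other side of 1; the cause was not tested. Results are given in the order plasma, globin, granulocyte.

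For WT, under 500 over at least 1000 genes (14.2, 6.17 and 4.64), the ratios were 7.82, 5.38 and 3.54 with no mitochondrial limit, 3.91, 0.173 and 3.495 with strata by UMIs, and 27.7, 7.35 and 1.48 without barcodes gated as the source cells. Without the 8% of barcodes with the most UMIs plasma and globin were 7.05 and 1.17, and as means over barcodes 8.32 and 0.843. Without the top 1% of each group they were 7.38, 5.03 and 2.03, without rich barcodes 4.855, 5.22 and 3.78, and without shared barcode sequences globin was 6.01.

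For KO (0.170, 15.7 and 98.0), no mitochondrial limit gave 0.770 for globin and 2.99 for granulocyte, and strata by UMIs gave 67.9 for granulocyte. Without the 8% the ratios were 0.585, 63.7 and 131.5, without gated source cells 5.19, 110.2 and 1.75, as means over barcodes 0.359, 35.9 and 116.7, without the top 1% 4.88, 111.5 and 71.0, without rich barcodes 6.05, 4.81 and 13.45, and without shared sequences 0.07035, 29.3 and 0.998.

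For KO over WT at 1000 genes or more (3.70, 0.0637 and 0.464), no mitochondrial limit gave 2.26 for plasma and 0.436 for granulocyte, and strata by UMIs 2.62 for plasma and 0.0285 for globin. Without the 8% the ratios were 0.533, 0.00716 and 0.342, without gated source cells 0.246, 0.01165 and 0.508, as means over barcodes 1.29, 0.0217 and 0.325, without the top 1% 0.218, 0.129 and 0.484, and without rich barcodes 0.314, 0.199 and 0.633. With no minimum of CPM the counts of all genes were 233 higher and 128 lower, against 13 and 15. Thinning to 1000 in place of 500 UMIs gave Igkc in 9.84% of WT and 3.90% of KO ILC2-like barcodes, against 6.595% and 1.89%, and Hba-a1 in 4.32% against 1.73% in WT. The Igha to Igkc and Hba-a1 to Hbb-bs ratios of ILC2-like barcodes stayed within their intervals under each of 3 alternatives. Without the richest barcode of the source cells the ratio moved by over 1.5 times only for Igha to Igkc of WT plasma cell-like barcodes (0.105 against 0.324), of 10 such ratios. The alternatives without rich barcodes, without shared sequences and without that barcode were chosen after the data were seen.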

Other observations

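Barcodes above 10% mitochondrial UMIs were left out of the comparisons above. In WT 1602, 1591 and 743 of them had under 500, 500 to under 1000 and at least 1000 genes, and the plasma cell transcripts stood there at 705, 793 and 1764 CPM. The globins stood at 277, 91.8 and 35.9 CPM and the granulocyte transcripts at 381, 295 and 429.5 CPM. In KO, with 1750, 864 and 1307 such barcodes, the plasma cell transcripts stood at 242, 1105 and 70.7 CPM, the globins at 13.5, 31.3 and 5.15 CPM and the granulocyte transcripts at 70.3, 43.8 and 137 CPM. Of the 46 WT barcodes there that were rich in plasma cell transcripts, 3 were plasma cell-like and held 68.3% of these UMIs.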
